A study of Mus musculus with 8 samples.

Results

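Sall1 is the gene of a zinc-finger transcription regulator, and its accessible regions were taken from ATAC-seq of forebrain microglia as all 42 peaks that the deposited peak table assigns to Sall1, of 67822 peaks in all. ATAC-seq marks open chromatin by the places where a transposase inserts sequencing adapters, and the measured value is the number of sequenced tags in a peak. There were 4 libraries of microglia from Nlrp3-/- mice, a Cias1 knockout obtained from Millennium Pharmaceuticals, and 4 libraries of microglia from wild-type mice on the C57BL/6N background. NLRP3 senses danger signals and assembles an inflammasome. In both genotypes the cells were taken from dissociated forebrain by magnetic selection for CD11b after removal of myelin, so other CD11b-positive myeloid cells could be among them. The animals carried no further allele or treatment named in the labels, and nothing in them tells if replicates are separate animals. P-values therefore measure the spread between these libraries, which may be technical in part.

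SALL1 belongs to the spalt family of DNA-binding proteins and mostly acts as a repressor of transcription. In the mouse brain it is found in microglia, the resident macrophages of the tissue, and is absent from most other macrophages, and mice that lose it in microglia show inflammatory, activated microglia. Its expression in microglia depends on TGF-β signalling through SMAD proteins, and it is placed with PU.1, IRF8 and MEF2 factors among the regulators of microglial identity. Accessibility of a gene's promoter and enhancers is a measure of chromatin and not of transcription, which was not measured in these samples.

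Sall1 lies on the minus strand of chromosome 8 at 89027242 to 89044162 of mm10, and RefSeq (GRCm38.p6) lists 3 transcripts with 3 start sites. The deposited distances count from the outermost start site, at 89044162, and positive distances lie inside the gene. The second start site lies 650 bp and the third 1300 bp downstream of it. The promoter window of each start site overlaps a peak of its own, centred 131 bp upstream, 413 bp downstream and 1212 bp downstream of the outermost start site. The table marks the last 2 and a peak 3.0 kb downstream as CpG islands. The RefSeq promoter sequences, from 250 bases before to 50 after each start site and written 5′ to 3′ along the gene, are shown because these 3 windows hold the start-site peaks described next. Capitals mark the bases that lie inside a deposited peak, whose edges may be 1 base off.
start site 1 (chr8:89044113-89044412, minus strand): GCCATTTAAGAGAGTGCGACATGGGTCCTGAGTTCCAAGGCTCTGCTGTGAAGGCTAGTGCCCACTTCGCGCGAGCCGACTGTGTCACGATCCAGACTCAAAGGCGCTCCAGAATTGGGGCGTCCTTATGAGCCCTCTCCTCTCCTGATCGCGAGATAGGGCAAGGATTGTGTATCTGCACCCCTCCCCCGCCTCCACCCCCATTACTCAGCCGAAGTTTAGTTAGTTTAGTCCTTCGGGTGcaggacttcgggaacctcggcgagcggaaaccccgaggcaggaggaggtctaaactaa
start site 2 (chr8:89043463-89043762, minus strand): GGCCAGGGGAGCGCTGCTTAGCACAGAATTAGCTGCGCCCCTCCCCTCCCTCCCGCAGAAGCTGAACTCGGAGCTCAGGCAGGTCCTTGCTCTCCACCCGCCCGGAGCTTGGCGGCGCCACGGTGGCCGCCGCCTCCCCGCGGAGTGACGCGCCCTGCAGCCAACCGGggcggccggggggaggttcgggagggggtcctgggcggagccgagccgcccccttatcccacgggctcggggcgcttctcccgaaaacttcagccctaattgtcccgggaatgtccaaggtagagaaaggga
start site 3 (chr8:89042813-89043112, minus strand): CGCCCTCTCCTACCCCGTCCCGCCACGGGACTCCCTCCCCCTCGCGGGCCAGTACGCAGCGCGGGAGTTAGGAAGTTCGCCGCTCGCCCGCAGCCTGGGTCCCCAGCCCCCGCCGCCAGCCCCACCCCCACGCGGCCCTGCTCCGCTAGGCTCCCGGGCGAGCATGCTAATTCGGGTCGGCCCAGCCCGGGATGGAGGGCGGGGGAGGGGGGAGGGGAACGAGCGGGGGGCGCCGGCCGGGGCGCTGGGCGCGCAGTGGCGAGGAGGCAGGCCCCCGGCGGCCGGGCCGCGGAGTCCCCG

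Accessible bases covered 242 of the 300 bases at start site 1, 168 at start site 2 and all 300 at start site 3. The 3 windows differed in base composition. Start site 3 had 79.7% G and C, more than 98.8% of the 32851 RefSeq promoters of the same length, start site 2 had 70% and start site 1 had 57.3%, against a median of 52.7%. The ratio of observed to expected CpG was 0.819, 0.735 and 0.731 at start sites 3, 2 and 1, against a median of 0.384 over all promoters. Letters of 9 motifs were searched on both strands. The GC box GGGCGG, bound by SP and KLF factors, occurred 4 times at start site 2 and 1 time at start site 3, and is found in 35.7% of all promoters. Of the 4 matches at start site 2, only 1 lay wholly inside the peak. The ETS core GGAAGT occurred 1 time at start site 3, 180 bases before the start (23.8% of all promoters), and the SMAD core CAGAC occurred 1 time at start site 1, 158 bases before the start (49.6%). No window held the letters GAGGAAGT of a PU.1 site, which contain the ETS core (3.20% of all promoters), an IRF element (3.44%), TGANTCA for AP-1 (7.81%), GTCTAGAC for the SMAD box (0.213%), a MEF2 element (3.69%) or TATAAA for a TATA box (13.6%). These matches describe the letters of the windows and are not binding sites.

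The libraries held 11325865 to 14301529 tags in the knockout and 11872703 to 15521580 in the wild type, and 9414 of all tags lay in Sall1 peaks. The share of tags in any listed peak was 6.68%, 4.96%, 20.9% and 26.2% in knockout replicates 1 to 4 and 17.5%, 9.79%, 12.8% and 14.4% in wild-type replicates 1 to 4. Knockout replicates 1 and 2 thus lay below every wild-type library, and knockout replicates 3 and 4 above. Leaving out knockout replicates 1 and 2, as done below, keeps as knockout only the libraries with the highest shares. The promoter peak of Nlrp3 held 0, 0, 1 and 2 tags in knockout replicates 1 to 4 and 143, 114, 112 and 149 tags in wild-type replicates 1 to 4, which matches the labels. All 10 microglial marker genes had a peak, and their summed level was 1825 to 1960 CPM in knockout and 1589 to 1812 CPM in wild-type libraries, where CPM are scaled tags. Peaks and gene sums were each scaled (TMM) within their own table, so the CPM of a gene are not the sum of the CPM of its peaks. The 10 markers of border macrophages and monocytes, other CD11b-positive cells, summed to 251 to 472 CPM in the knockout and 280 to 385 CPM in the wild type, and none of the 5 granulocyte and lymphocyte markers had a peak. The summed levels of markers of other brain cells were 365 to 516 CPM (knockout) and 320 to 402 CPM (wild type) for astrocytes with 5 of 6 genes, and 397 to 459 CPM (knockout) and 369 to 405 CPM (wild type) for the oligodendrocyte lineage with 3 of 6. They were 297 to 369 CPM (knockout) and 289 to 307 CPM (wild type) for endothelial and mural cells with 4 of 5, and 67.3 to 114 CPM (knockout) and 76.0 to 87.8 CPM (wild type) for neurons with 5 of 8. No gene of these lists passed edgeR's test, where 0.213% of all gene sums did. At an unadjusted p under 0.05 by edgeR there were 7 of 35, beside 5.96% of all gene sums (5 by DESeq2 and 8 by limma-voom, neither with a call). In such bulk libraries fewer cells of a type and less accessibility per cell cannot be told apart.

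Sall1 had a large number of peaks spread over a wide stretch. The 42 peaks spanned 601.9 kb, from 4.1 kb inside the gene to 597.4 kb upstream of it, and were 206 to 583 bp wide (median 256.5 bp). Only 25 of 16095 genes with a peak, Sall1 included, had as many peaks, and 25 had as many tags, where the median gene had 3 peaks. Of the 42 peaks, 38 lay upstream and 4 downstream of the start site, and the table calls 37 intergenic, 4 intronic and 1 a promoter peak. In RefSeq 11 of them overlap the non-coding genes Gm3134, Gm35358 and Gm35305, which lie at or upstream of the Sall1 start, and 5 overlap repeats (2 LINE, 2 LTR and 1 SINE). The authors listed 29 from both genotypes, 6 from the knockout only and 7 from the wild type only. These 13 single-genotype peaks were weak, with at most 86 tags over the 8 libraries. Assignment to Sall1 is by the nearest start site, and no contact with the promoter was measured here.

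Most Sall1 tags lay far from the gene. The 30 peaks over 100 kb upstream held 68.9% ± 2.68 of the Sall1 tags in knockout and 68.0% ± 0.538 in wild-type libraries (mean and SD, n = 4 libraries each, as in all values with ± that follow). A share of the Sall1 tags given without a genotype is taken over the summed tags of all libraries, so deeper libraries weigh more in it. The 5 peaks from 10 to 100 kb held 7.85% ± 1.26 (knockout) and 8.07% ± 0.672 (wild type), the 5 peaks from 1 to 10 kb held 15.4% ± 1.93 (knockout) and 15.6% ± 0.707 (wild type), and the 2 peaks within 1 kb held 7.86% ± 1.21 (knockout) and 8.27% ± 0.872 (wild type). Among the 351 genes with at least 20 peaks, the median share of tags over 100 kb from the start was 2.92%, and 8 genes had a higher share than the 69.0% of Sall1 over all libraries.

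**Figure D1:**
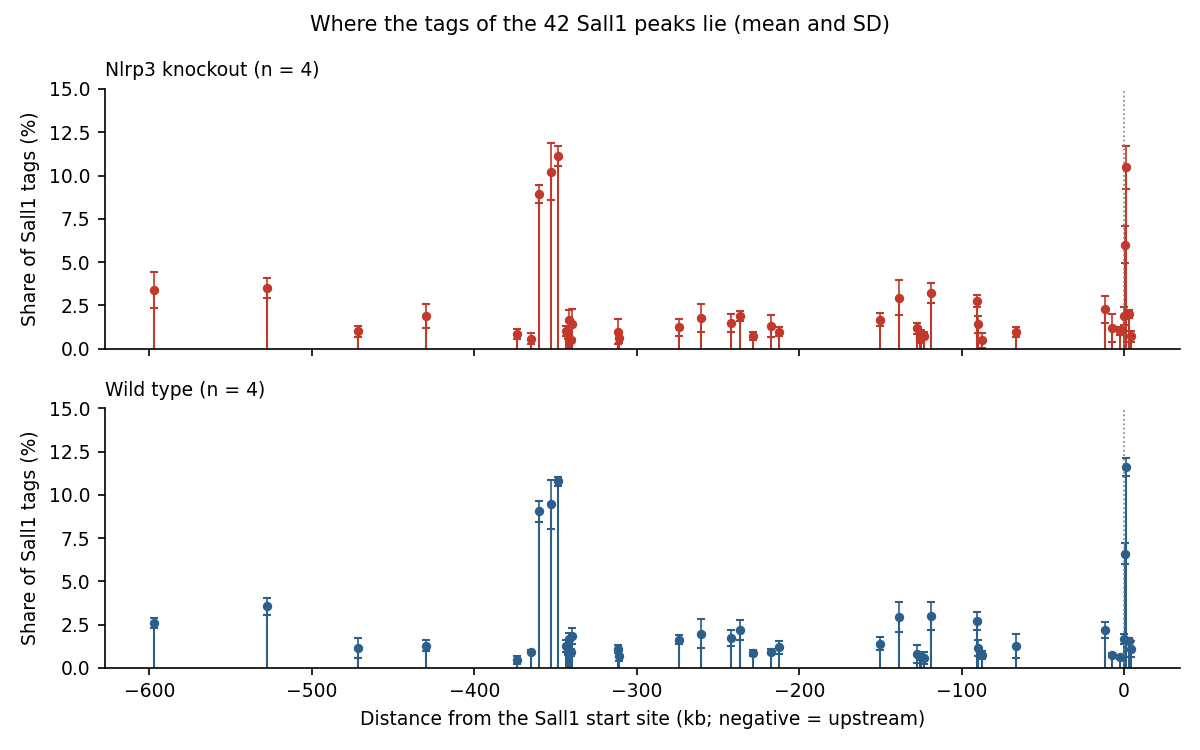
Share of the Sall1 tags (%, mean and SD of 4 libraries) in each of the 42 peaks against distance from the start site (kb, negative upstream), for Nlrp3 knockout (upper panel) and wild type (lower panel). In both panels the 5 highest peaks stand at the start sites and 348.7 to 360.3 kb upstream and hold 47.5% of the tags over all libraries, with 37 lower peaks around, between and beyond them.

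The 5 peaks with the most tags held 47.5% of all Sall1 tags and fell in 2 places, 2 at start sites 2 and 3 and 3 at 348.7 to 360.3 kb upstream. The fifth held 1.97 times the tags of the sixth, and each of the other 37 held 0.627% to 3.35%. All 5 stood above most peaks of the genome, since the first ranked 758 and the fifth 3683 by tags among the 67822 peaks.

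The peak 348.7 kb upstream (chr8:89392780-89393030), intergenic, held the most tags of all. Its level was 74.8, 65.0, 78.6 and 77.0 CPM in knockout replicates 1 to 4 and 71.1, 67.5, 63.2 and 68.5 CPM in wild-type replicates 1 to 4. The 3 highest libraries were knockout ones and the genotypes overlapped. Its mean was 73.8 ± 6.12 CPM in the knockout and 67.6 ± 3.30 CPM in the wild type, a log2 fold change of 0.14 (SE 0.13, 95% interval -0.11 to 0.40), and it held 11.1% and 10.8% of the Sall1 tags in knockout and wild-type libraries.

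The peak 352.6 kb upstream (chr8:89396512-89396972), in a LINE element, had the largest SD in CPM of the 5. It had 62.7, 48.7, 72.5 and 90.6 CPM in knockout replicates 1 to 4 and 63.6, 45.0, 62.0 and 66.6 CPM in wild-type replicates 1 to 4. Knockout replicate 4 was the highest and wild-type replicate 2 the lowest, and the genotypes overlapped. The mean was 68.6 ± 17.6 CPM (knockout) and 59.3 ± 9.75 CPM (wild type), with a log2 fold change of 0.26 (SE 0.16, 95% interval -0.07 to 0.59).

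The peak 360.3 kb upstream (chr8:89404321-89404567) had 54.3, 53.1, 67.6 and 62.1 CPM in knockout replicates 1 to 4 and 59.2, 52.7, 59.8 and 55.0 CPM in wild-type replicates 1 to 4. The genotypes overlapped, with means of 59.3 ± 6.83 CPM (knockout) and 56.6 ± 3.38 CPM (wild type) and a log2 fold change of 0.09 (SE 0.14, 95% interval -0.19 to 0.38). Among the 449 peaks over 300 kb from their assigned start site, whose median was 107 tags over the 8 libraries, these 3 ranked 9, 10 and 12. Over all 67822 peaks the strongest of the 3 ranked 758.

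At the gene itself the strongest peak was the one 1.2 kb downstream (chr8:89042697-89043204), which covers start site 3 and its GC-rich window. The deposited annotation names only the transcript of start site 1 and so calls it intronic. It had 62.7, 72.3, 66.3 and 74.7 CPM in knockout replicates 1 to 4 and 72.6, 73.8, 72.8 and 72.2 CPM in wild-type replicates 1 to 4. The wild-type values lay close together and inside the range of the knockout ones. The means were 69.0 ± 5.49 CPM (knockout) and 72.9 ± 0.675 CPM (wild type), with a log2 fold change of -0.07 (SE 0.13, 95% interval -0.33 to 0.19).

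The peak 0.4 kb downstream (chr8:89043595-89043904), at start site 2, had 32.6, 32.5, 40.0 and 55.6 CPM in knockout replicates 1 to 4 and 46.7, 37.2, 36.4 and 45.7 CPM in wild-type replicates 1 to 4. Knockout replicate 4 was the highest and knockout replicates 1 and 2 were the lowest libraries. The log2 fold change was 0.03 (SE 0.17, 95% interval -0.33 to 0.39) beside means of 40.2 ± 10.9 CPM (knockout) and 41.5 ± 5.43 CPM (wild type), so the fitted value and the means differ in sign.

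The peak 0.1 kb upstream (chr8:89044171-89044416), which the table calls the promoter of Sall1, was far weaker. It had 14.5, 11.8, 7.90 and 15.2 CPM in knockout replicates 1 to 4 and 13.4, 9.84, 7.97 and 10.7 CPM in wild-type replicates 1 to 4, with overlap of the genotypes. Its means were 12.3 ± 3.30 CPM (knockout) and 10.5 ± 2.27 CPM (wild type), and its log2 fold change was 0.21 (SE 0.27, 95% interval -0.34 to 0.77). Per kb of peak the order was the same, with a mean over the 8 libraries of 140 CPM per kb at start site 3, 132 CPM per kb at start site 2 and 46.4 CPM per kb at start site 1.

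**Figure D2:**
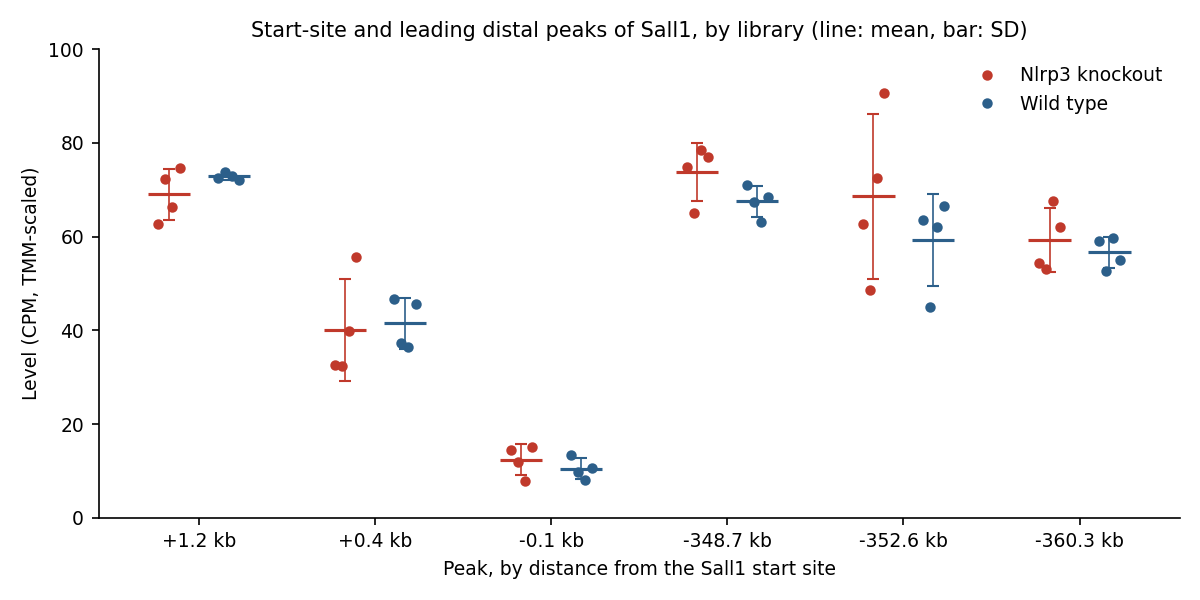
Level (CPM after TMM scaling) of the 3 start-site peaks and the 3 strongest upstream peaks in each library, with Nlrp3 knockout to the left of wild type at each peak, a line at the mean and a bar for the SD. The genotypes overlap at all 6 peaks, and the promoter peak at -0.1 kb is the lowest, with 7.90 to 15.2 CPM in the knockout and 7.97 to 13.4 CPM in the wild type.

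The 3 far peaks together held 30.3% ± 1.32 of the Sall1 tags in the knockout and 29.3% ± 1.497 in the wild type, and the 3 start-site peaks 18.3% ± 1.77 in the knockout and 19.9% ± 0.384 in the wild type. The ratio of far to start-site tags was 1.75, 1.43, 1.92 and 1.58 in knockout replicates 1 to 4 and 1.46, 1.37, 1.58 and 1.48 in wild-type replicates 1 to 4. More tags lay in the far peaks in every library, and the genotypes overlapped. These 6 peaks were picked by their levels, so the ratios are a description.

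The 3 far peaks lay in a chain of 10 Sall1 peaks over 34.0 kb (chr8:89383869-89417858), defined as peaks over 2.5 kb from any assigned start and at most 12 kb apart. The chaining was set up after the peak values were seen and carries no test. The chain summed to 234, 211, 267 and 276 CPM in knockout replicates 1 to 4 and 247, 219, 227 and 240 CPM in wild-type replicates 1 to 4, and held 37.1% ± 0.888 of the Sall1 tags in the knockout and 37.2% ± 0.793 in the wild type. Among 18812 such chains and single distal peaks over the genome it ranked 207 by mean level, above 98.9% of them, and its rank in single libraries was 153 to 278. The ranked level adds up the peaks of a region and is not corrected for their number, so long chains rank higher for that alone. Of the other 5 chains with at least 2 peaks that hold Sall1 peaks, the highest 2 had means of 69.1 and 68.4 CPM, one around the gene, which also holds peaks assigned to Mir8110, and one 119.1 to 150.2 kb upstream. The chain 119.1 to 150.2 kb upstream averaged 73.7 ± 15.4 CPM in the knockout, against 63.1 ± 10.4 CPM in the wild type.

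**Figure D3:**
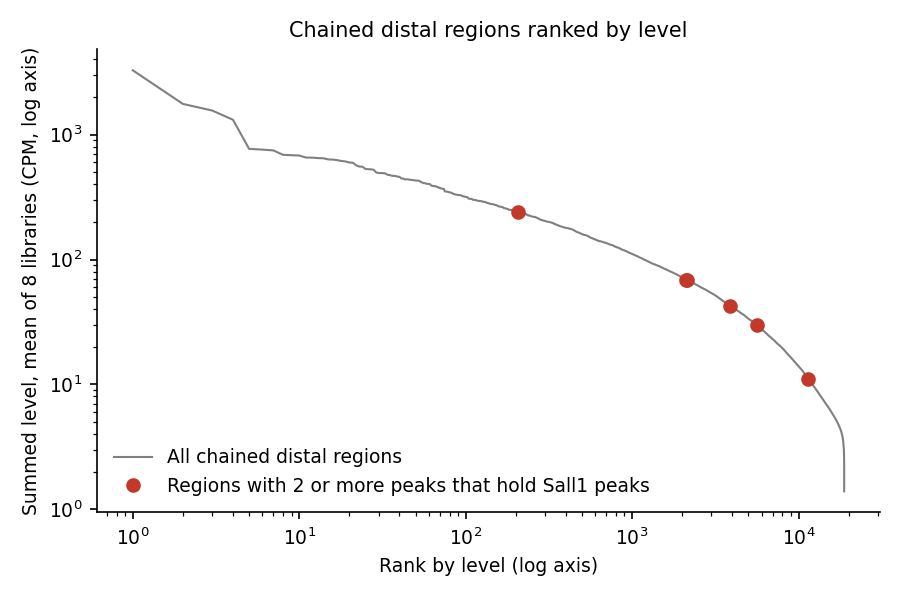
Summed level (CPM, mean of 8 libraries, log axis) of 18812 distal regions, made by chaining peaks at most 12 kb apart, against their rank (log axis), with the 6 regions of at least 2 peaks that hold Sall1 peaks as points. The point farthest to the left is the 10-peak chain 339.9 to 373.6 kb upstream at rank 207; points of the next 2 regions lie on top of each other.

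The remaining 7 peaks of that chain were weak. On the near side, the peaks at 339.9 and 340.8 kb upstream averaged 9.41 ± 5.13 and 3.46 ± 0.955 CPM in the knockout, against 11.6 ± 2.70 and 5.58 ± 1.27 CPM in the wild type, with 1.59% and 0.722% of the Sall1 tags. Those at 341.8, 342.5 and 343.3 kb averaged 10.9 ± 3.498, 5.16 ± 1.34 and 6.76 ± 1.52 CPM in the knockout, against 10.4 ± 2.33, 5.38 ± 0.902 and 7.98 ± 2.49 CPM in the wild type, with 1.58%, 0.797% and 1.09% of the tags. On the far side, the peaks at 365.0 and 373.6 kb averaged 3.86 ± 1.90 and 5.57 ± 2.35 CPM in the knockout, against 5.80 ± 0.600 and 2.89 ± 1.59 CPM in the wild type, with 0.744% and 0.701% of the tags. The peak at 365.0 kb had the lowest log2 fold change of the tested Sall1 peaks, -0.56, and the peak at 373.6 kb, listed from the knockout only, was left out of the test by the filter on low counts.

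Beyond the chain lay 4 peaks, of which the outermost pair held more tags than the others. The peak 527.8 kb upstream (chr8:89571880-89572134), sixth by tags, had 26.5, 22.1, 20.6 and 22.6 CPM in knockout replicates 1 to 4 and 20.9, 24.6, 23.9 and 19.6 CPM in wild-type replicates 1 to 4, with means of 22.99 ± 2.52 CPM (knockout) and 22.2 ± 2.40 CPM (wild type). The last one, 597.4 kb upstream (chr8:89641430-89641695), had 14.5, 17.7, 33.8 and 24.9 CPM in knockout replicates 1 to 4 and 15.4, 14.1, 17.6 and 17.2 CPM in wild-type replicates 1 to 4. Knockout replicates 3 and 4, the libraries with the highest share of tags in peaks, were the highest, and knockout replicate 1 lay inside the wild-type range. These peaks held 3.35% and 3.15% of the Sall1 tags. The peak 429.9 kb upstream (chr8:89473899-89474232), an intergenic one with 1.54% of the tags, had 7.24, 16.2, 11.9 and 14.2 CPM in knockout replicates 1 to 4 and 6.96, 10.5, 6.26 and 7.92 CPM in wild-type replicates 1 to 4. The peak at 471.6 kb averaged 6.59 ± 1.99 CPM in the knockout and 7.23 ± 3.85 CPM in the wild type and held 1.12% of the tags.

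From 119.1 to 311.6 kb upstream the peaks lay in 3 chains and alone. In the chain nearest to the gene, the peaks at 119.1 and 138.4 kb were the strong ones. The peak at 119.1 kb averaged 21.6 ± 5.40 CPM in the knockout and 18.8 ± 5.64 CPM in the wild type, and the peak at 138.4 kb averaged 19.8 ± 7.65 CPM in the knockout and 18.4 ± 5.77 CPM in the wild type. They held 3.20% and 3.10% of the Sall1 tags. Between them, the peaks at 123.0, 125.0, 125.5 and 127.7 kb averaged 4.86 ± 1.12, 4.84 ± 2.80, 4.00 ± 1.201 and 7.57 ± 1.34 CPM in the knockout, against 3.63 ± 2.15, 4.44 ± 0.688, 4.18 ± 1.56 and 4.85 ± 3.13 CPM in the wild type, with 0.648%, 0.786%, 0.648% and 0.871% of the tags. All 4 were listed from 1 genotype only, the peak at 125.5 kb from the wild type and the others from the knockout. The peak at 150.2 kb averaged 11.2 ± 3.19 CPM in the knockout and 8.85 ± 2.48 CPM in the wild type (1.60% of the tags).

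Farther out, the peaks at 212.3, 217.4 and 228.4 kb averaged 6.53 ± 1.69, 8.52 ± 3.57 and 4.91 ± 1.32 CPM in the knockout, against 7.38 ± 2.27, 5.91 ± 1.08 and 5.34 ± 1.03 CPM in the wild type, with 1.07%, 0.988% and 0.765% of the tags. Those at 236.6 and 242.2 kb averaged 12.51 ± 2.99 and 9.94 ± 4.09 CPM in the knockout, against 13.8 ± 3.17 and 10.8 ± 2.84 CPM in the wild type, with 2.06% and 1.68% of the tags. All 5 lay in 1 chain, and only the peak at 217.4 kb had the higher mean in the knockout. Outside any chain, the peaks at 260.3 and 274.0 kb averaged 11.4 ± 4.199 and 8.37 ± 3.83 CPM in the knockout, against 12.3 ± 4.9997 and 10.2 ± 1.49 CPM in the wild type, with 1.59% and 1.51% of the tags. The pair at 310.7 and 311.6 kb averaged 4.17 ± 2.07 and 6.87 ± 5.43 CPM in the knockout, against 4.38 ± 2.01 and 6.88 ± 1.60 CPM in the wild type, with 0.680% and 1.25% of the tags.

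Between 10 and 100 kb upstream, in the stretch of the non-coding genes Gm3134, Gm35358 and Gm35305, lay 5 peaks. The strongest of them, 90.4 kb upstream in Gm35305, averaged 18.1 ± 1.06 CPM in the knockout and 16.96 ± 2.71 CPM in the wild type and held 2.59% of the Sall1 tags. Its neighbours at 87.5 and 90.1 kb averaged 3.16 ± 2.60 and 9.37 ± 3.64 CPM in the knockout, against 4.77 ± 1.54 and 7.22 ± 2.79 CPM in the wild type, with 0.627% and 1.32% of the tags. The peak 87.5 kb upstream was the weakest of all 42. The peak 66.7 kb upstream in Gm35358 averaged 6.28 ± 1.47 CPM in the knockout and 7.88 ± 4.07 CPM in the wild type (1.02% of the tags), and the peak 11.8 kb upstream in Gm3134 averaged 14.8 ± 4.50 CPM in the knockout and 13.7 ± 3.05 CPM in the wild type (2.07% of the tags).

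Within 10 kb of the start site, the other 4 peaks flank the start-site peaks. The peak 3.0 kb downstream (chr8:89040880-89041406), intronic, had 10.9, 13.3, 13.6 and 15.2 CPM in knockout replicates 1 to 4 and 9.45, 9.14, 10.8 and 9.78 CPM in wild-type replicates 1 to 4. The peak 2.3 kb upstream (chr8:89046306-89046614), listed from the knockout only, had 8.45, 5.91, 7.03 and 5.82 CPM in knockout replicates 1 to 4 and 4.97, 3.51, 3.41 and 3.73 CPM in wild-type replicates 1 to 4. At both, every knockout library was higher than every wild-type one. They held 1.78% and 0.786% of the Sall1 tags. The peaks 4.1 kb downstream and 7.4 kb upstream, both listed from the wild type only, averaged 4.75 ± 2.46 and 7.42 ± 4.46 CPM in the knockout, against 6.75 ± 2.81 and 4.71 ± 0.885 CPM in the wild type, with 0.914% and 0.765% of the tags.

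No Sall1 peak passed the test between Nlrp3 knockout and wild type. Of the 42 peaks, 33 passed the filter on low counts and were tested, and the 9 others, all listed from 1 genotype only, held 59 to 74 tags over the 8 libraries. The filter asks for a minimum level in at least 4 libraries, so the total of a peak does not decide it alone. By edgeR's quasi-likelihood test with Benjamini-Hochberg adjustment over all 58135 tested peaks, 0 of 33 Sall1 peaks had an adjusted p under 0.05, where 0.17% of all tested peaks did, and the lowest adjusted p of a Sall1 peak was 0.843. At an unadjusted p under 0.05 there were 2 of 33, beside 4.83% of all tested peaks. DESeq2 and limma-voom also called 0, with 1 and 5 peaks at an unadjusted p under 0.05. All shares of tested peaks and gene sums given in this report are those of edgeR. The counts by DESeq2 and limma-voom, also for the other lists, have no such share beside them and cannot be read as an excess or a lack.

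The 2 peaks were the outermost one and the one at 429.9 kb. The peak 597.4 kb upstream averaged 22.7 ± 8.58 CPM in the knockout and 16.1 ± 1.67 CPM in the wild type (log2 fold change 0.62, SE 0.22, edgeR adjusted p = 0.843, and 0.0903 to 1.00 over the alternatives). The lowest value, 0.0903, was without knockout replicates 1 and 2, and without knockout replicate 3 the log2 fold change was 0.35 (edgeR adjusted p = 1.00). The peak 429.9 kb upstream averaged 12.4 ± 3.87 CPM in the knockout and 7.92 ± 1.87 CPM in the wild type (log2 fold change 0.69, SE 0.28, edgeR adjusted p = 0.943, and 0.484 to 1.00 over the alternatives). Knockout libraries were the highest at both peaks and the genotypes overlapped.

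Genotypes without overlap were seen at 2 of the 33 tested Sall1 peaks, both higher in the knockout, where 3.17% of all tested peaks had no overlap in either direction and 1.68% had all knockout libraries higher. The peak 3.0 kb downstream averaged 13.2 ± 1.79 CPM in the knockout and 9.79 ± 0.729 CPM in the wild type, a log2 fold change of 0.48 (SE 0.24). The peak 2.3 kb upstream averaged 6.80 ± 1.23 CPM in the knockout and 3.91 ± 0.722 CPM in the wild type, a log2 fold change of 0.74 (SE 0.37). The second was listed from the knockout only, and of the 6 peaks listed so, 5 had the higher mean in the knockout, a direction that is not independent of the listing. The peak 2.3 kb upstream also passed the filter on low counts through the knockout libraries alone. Its lack of overlap is therefore not independent of that filter, and the count of 2 of 33 cannot be read as an excess.

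The log2 fold changes of the tested Sall1 peaks ran from -0.56 to 0.74 with a median of 0.06, against 0.0037 over all tested peaks, and 21 were above and 12 below 0. Among the 14 Sall1 peaks with a mean of at least 20 tags, 12 were above and 2 below 0, with a median of 0.12. With cyclic loess the split over the 33 was 24 and 9. It was 25 and 17 over all 42 peaks without the filter on low counts. Leaving out wild-type replicate 3 gave 20 and 18, and leaving out knockout replicate 4 gave 21 and 15. Scaling to all tags of a library moved the median of all tested peaks to 0.0989, and 22 of 33 Sall1 peaks then lay above that median. Peaks of the same libraries are not independent, and these counts have no share of all peaks beside them, so they are a description. The median Sall1 peak held 14 tags per library (0 to 280), and the 95% intervals of the log2 fold change reached 0.257 to 0.818 to either side of the estimate, with a median of 0.576. At 22 of 33 peaks the whole interval lay within a 2-fold change.

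**Figure D4:**
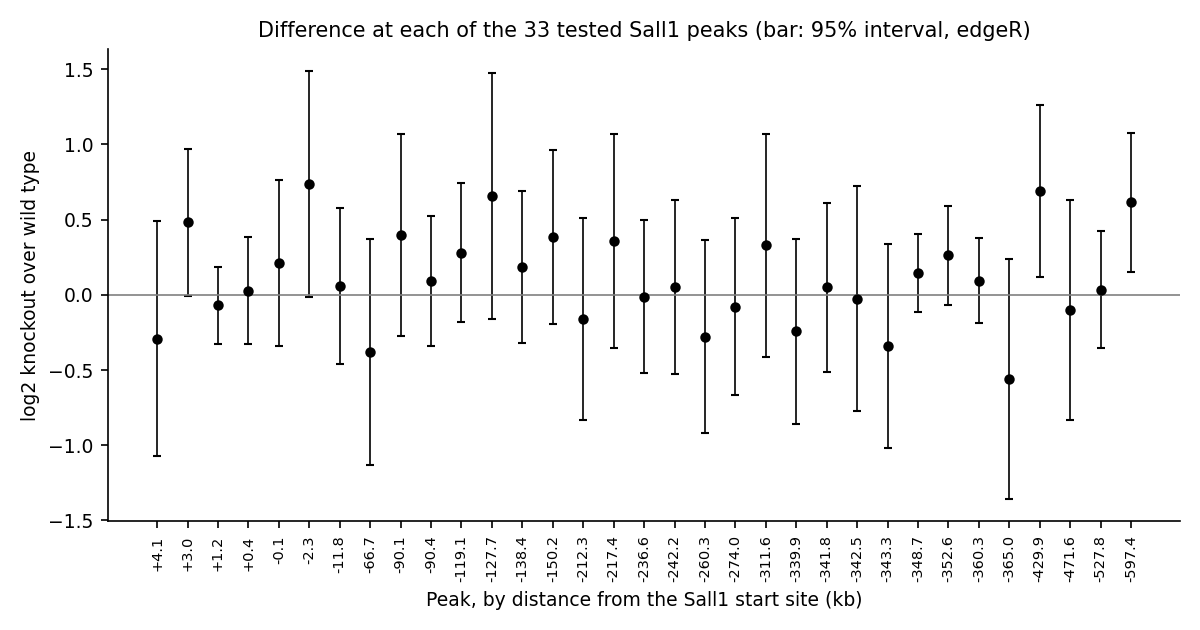
Log2 fold change of Nlrp3 knockout over wild type at each of the 33 tested Sall1 peaks, ordered by distance from the start site (kb, negative upstream), with 95% intervals from edgeR. The 5 strongest peaks have the shortest intervals and all 5 intervals cross 0; the intervals of the 2 peaks 429.9 and 597.4 kb upstream stay above 0 before adjustment.

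Summed over its 42 peaks, Sall1 reached 617, 576, 675 and 704 CPM in knockout replicates 1 to 4 and 644, 586, 566 and 606 CPM in wild-type replicates 1 to 4. Knockout replicates 3 and 4 were the highest and the genotypes overlapped. The means were 643.0 ± 57.4 CPM in the knockout and 600.1 ± 33.2 CPM in the wild type, a log2 fold change of 0.11 (SE 0.08, 95% interval -0.05 to 0.26). It did not pass edgeR's quasi-likelihood test over 15476 gene sums (edgeR adjusted p = 0.899, and 0.562 to 1.00 over the alternatives), where 0.213% of the gene sums did. The estimate was 0.06 without knockout replicate 4, 0.06 with cyclic loess and 0.20 without knockout replicates 1 and 2. Scaled to all tags it was 0.24, where the median of all genes was 0.0884, so that Sall1 stood 0.16 above that median. The summed microglial markers given above were at least 1825 CPM in knockout and at most 1812 CPM in wild-type libraries. How often sums of such lists separate the genotypes was not tested, so this narrow gap cannot be read as a difference between them. Of these 10 genes, 0 passed edgeR's test and 3 had an unadjusted p under 0.05 by edgeR, beside 5.96% of all gene sums. The median log2 fold change of the microglial markers was 0.09. It was 0.21 for the neuron markers, 0.10 for the oligodendrocyte lineage and 0.08 for astrocytes. For endothelial and mural cells it was 0.04, and for border macrophages and monocytes 0.01. The part of any of these in the Sall1 level was not tested.

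The level of Sall1 moved with the share of a library's tags that lay in peaks. Sall1 held 0.0602%, 0.0561%, 0.0673% and 0.0700% of the tags in peaks in knockout replicates 1 to 4 and 0.0636%, 0.0587%, 0.0580% and 0.0611% in wild-type replicates 1 to 4. Over the 8 libraries this share rose with the share of tags in peaks, with a Pearson r of 0.931 (exact permutation p = 0.000843) and a Spearman rho of 0.905 (exact permutation p = 0.00456), the only such relation computed. Without knockout replicates 4 and 2, the libraries farthest from the median, r was 0.813 over 6 libraries (exact permutation p = 0.0472). The genotypes hold 4 libraries each, too few for a value within a genotype. The tags in peaks enter both measures, and the lowest and the highest libraries were knockout ones.

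**Figure D5:**
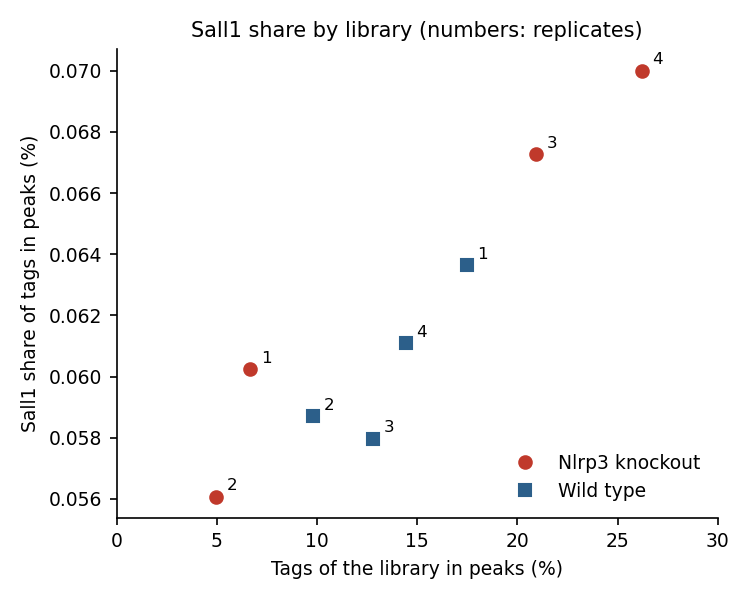
Share of the tags in peaks that lay in Sall1 peaks (%, axis not from 0) against the share of all tags of the library that lay in peaks (%), with circles for Nlrp3 knockout and squares for wild type and the replicate number beside each. The 2 knockout libraries at the lower left have 4.96% and 6.68% of tags in peaks and the 2 at the upper right 20.9% and 26.2%, with the wild-type libraries between them.

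The Sall1 share of the tags in peaks and 3 shares of the Sall1 tags by position did not differ between the genotypes beyond the spread, by two-sided exact permutation tests over 70 splits, whose smallest possible p is 0.0286. The share of the tags in peaks that lay in Sall1 averaged 0.0634% ± 0.00638 in the knockout and 0.0604% ± 0.00256 in the wild type (exact p = 0.4). The share of Sall1 tags within 1 kb of the start site differed by -0.41 points (exact p = 0.657) and the share over 100 kb by 0.895 points (exact p = 0.657), knockout minus wild type, from the means given above. The leading peak at 348.7 kb held 11.1% ± 0.576 in the knockout and 10.8% ± 0.261 in the wild type (exact p = 0.314). Adjusted over the 4 shares, each p was 0.657. The sizes depended on single libraries. The difference in the share over 100 kb was -0.32 points without knockout replicate 3 and 2.80 points without knockout replicates 1 and 2. Over the alternatives the difference in the Sall1 share of tags in peaks ran from 0.000839 points (without knockout replicate 4) to 0.00828 points (without knockout replicates 1 and 2). For the leading peak it ran from 0.0644 points (without knockout replicates 1 and 2) to 0.606 points (without knockout replicate 4).

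The Sall1 gene body also held peaks that the table gives to another gene. Of 6 peaks inside the gene, 2 lie in its exons, 12.4 and 15.7 kb downstream of the start site, and are assigned to Mir8110, a microRNA gene just past the end of Sall1. They averaged 10.5 ± 2.58 and 6.14 ± 2.18 CPM in the knockout, against 10.7 ± 1.56 and 7.57 ± 1.45 CPM in the wild type, with log2 fold changes of -0.10 and -0.44. Within 1 Mb of the Sall1 start lay 108 peaks assigned to 13 genes, and Sall1 held 39.1% of their tags. Of 90 tested peaks there, 0 passed edgeR's test, where 0.17% of all tested peaks did. At an unadjusted p under 0.05 there were 5, beside 4.83% of all tested peaks (1 by DESeq2 and 8 by limma-voom, neither with a call).

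The stretch was lopsided. Upstream of the last Sall1 peak the next peak lay 740.9 kb away from the Sall1 start and is assigned to Tox3, which had 2 peaks in the window. Downstream lay the peaks of the other 11 genes, the nearest those of Mir8110 with 10 peaks. Cyld, a deubiquitinase that restrains NF-κB signalling, had 5 peaks 201 to 350 kb downstream. Nod2, a sensor of bacterial peptidoglycan, held 16.6% of the tags of the window in 7 peaks, Adcy7, an adenylate cyclase, 10.5% in 15 peaks, and Snx20, a sorting nexin, 9.68% in 11 peaks. Nkd1, an inhibitor of Wnt signalling, held 5.25% in 7 peaks, and Papd5, Mir7071, Brd7, Heatr3 and Gm2716 had 1 to 4 peaks each.

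Of the other spalt genes, Sall2 had 5 peaks with 40.8 ± 7.11 CPM in the knockout and 33.8 ± 2.95 CPM in the wild type (log2 fold change 0.18, SE 0.15, edgeR adjusted p = 0.925). Sall3 had 15 peaks with 156.8 ± 29.6 CPM in the knockout and 147.0 ± 11.3 CPM in the wild type (log2 fold change 0.09, SE 0.10, edgeR adjusted p = 0.952), and no peak is assigned to Sall4. None of the 3 tested spalt genes had an unadjusted p under 0.05 by edgeR, DESeq2 or limma-voom, where 5.96% of all gene sums did by edgeR. Sall1 had the most peaks and the highest summed level of the family, on a scale that adds up peaks and is not corrected for their number.

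Other regulators of microglial identity and TGF-β signalling, a list of 30 genes such as Spi1 (PU.1), Irf8, Mef2c and Smad3, held no call either. All 30 were tested as gene sums and 0 passed edgeR's test, where 0.213% of all gene sums did. At an unadjusted p under 0.05 by edgeR there were 4, beside 5.96% of all gene sums (3 by DESeq2 and 0 by limma-voom, neither with a call). The median log2 fold change was 0.04 against 0.0020 over all genes, with 18 of 30 above 0 and a range of -0.25 to 0.51. The list's genes had a median of 18.5 peaks and only 2 had more than Sall1, among them Runx1, a factor of blood cell development, with 61. Klf2, a Krüppel-like zinc-finger factor, had the smallest p, with 767 ± 258 CPM in the knockout and 530 ± 58.8 CPM in the wild type (log2 fold change 0.51, SE 0.15, edgeR adjusted p = 0.357). Without knockout replicate 4 its log2 fold change was 0.69 and its edgeR adjusted p 0.00150, the single call on the list under any alternative. The library left out there, with 475 CPM, lay below every wild-type library (484 to 616 CPM), so the call rests on leaving out the knockout library that went the other way. Rxra, a nuclear receptor, and Egr1, an immediate early factor, followed with log2 fold changes of 0.24 and 0.27 (edgeR adjusted p = 0.645 and 0.671).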

How the data were processed

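ATAC-seq tags were read from 4 Nlrp3 knockout and 4 wild-type libraries of CD11b-positive forebrain microglia. Per the labels' protocols, fragments of 165 to 250 bp were selected on a gel and sequenced single-end for 51 cycles. Tools named without versions in the submitters' processing notes are Bowtie2, HOMER and DESeq2, and the build is mm10. The authors merged IDR peak lists of the 2 genotypes, per the file headers, and counted tags per peak with HOMER, at most 3 per position. Not given in the sources used here are alignment settings, a shift for the transposase and duplicate removal. Raw counts were used as deposited, and the deposited normalized signal, tags scaled by the authors to a total of 10000000, equalled the scaled counts to within 0.005. The cap per position and the separate peak lists limit high counts and decide which weak peaks exist.

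Sall1 peaks were those whose gene name in the table is Sall1. Counts per peak, and counts summed per gene over 16095 genes, were tested with edgeR 4.0.16 (R 4.3.3): TMM scaling, filterByExpr at a minimum count of 10, the quasi-likelihood F test with genotype as the only term, and an adjusted p under 0.05 over all tested peaks or genes. The 117 peaks without a gene (0.134% of the tags in peaks) stayed out of the gene sums. CPM of untested peaks use the scaling of the tested peaks, and gene sums were scaled apart from peaks. Shares were tested by exact permutation with scipy 1.17.1. Alternatives were DESeq2 1.42.0, limma 3.58.1 (voom with cyclic loess), other scalings and filters, a replicate block and leaving out libraries. The test was run on simulated counts with known changes before use. Named are all Sall1 peaks, the spalt genes, the 3 regulators with the smallest p, regulators past the threshold, the 5 genes most like Sall1 and genes with peaks within 1 Mb. The members, lists and motifs were chosen with earlier results of these data known. The deviations of same-numbered libraries had correlations of -0.0083 to 0.147, and those of differently numbered ones -0.125 to 0.0879. These ranges overlap and the highest value was a same-numbered one, so they do not settle if replicate numbers pair the libraries. The main fit has no pairing term, and fits with the number as a block are given below. No pair of libraries was alike within sampling noise, with a chi-square per degree of freedom of at least 1.17. Intervals cover the spread between libraries. Sall1 held 398 to 2277 tags per knockout and 867 to 1370 per wild-type library. Promoters came from RefSeq (GRCm38.p6); distal peak sequences were not used here.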

Additional observations from a re-analysis of the deposited data

Results flagged for a closer look

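In 2 of the 94 groups of 4 values checked, 1 library lay far from the other 3, where chance gives about 1 in 20. At the Sall1 peak 471.6 kb upstream, knockout replicate 1 had 3.62 CPM, against 7.38 to 7.90 CPM in the other knockout libraries. At the Sall1 peak 138.4 kb upstream, wild-type replicate 2 had 9.84 CPM, against 19.9 to 21.9 CPM in the other wild-type libraries.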

How the results depend on the processing

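No Sall1 peak and no spalt gene passed the threshold under any of the 17 alternatives. The tested peaks gave 542 values under them, of which 494 kept their sign and 48, at 15 peaks, did not, with none called and a lowest adjusted p of 0.0903. The log2 fold change of the Sall1 sum was 0.06 to 0.24 throughout, and leaving out knockout replicates 1 and 2 gave 0.20. The share over 100 kb differed by -0.32 to 1.76 points when 1 library was left out, the lowest without knockout replicate 3, and by 2.80 points without knockout replicates 1 and 2, and the count of identity regulators past the threshold was 0 to 1, the call being Klf2 without knockout replicate 4. The causes were not tested. The rank of the 10-peak chain, 207, was 219 with a slightly longer chaining distance, tried after seeing the data. Over all peaks, 99 were called, against 246 without knockout replicates 1 and 2, 65 by DESeq2, 65 without knockout replicate 3, 42 with a mean of at least 20 tags and 19 when scaled to all tags. Over all gene sums, 33 were called, against 70, 28, 20, 29 and 5 in the same order, and 21 without wild-type replicate 3. With the replicate number as a block, the log2 fold change of the Sall1 sum was 0.10 (edgeR adjusted p = 0.766), and 140 peaks and 38 genes were called. For the 4 shares the block leaves the difference of the means as it is by construction, and its sign-flip test over 4 pairs (exact adjusted p = 0.75 each) cannot give a p below 0.125. At 0 to 280 tags per Sall1 peak and library, the 95% intervals of the fold change reached 0.257 to 0.818 to either side on the log2 scale.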

Other observations

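Genes whose summed level varied most like that of Sall1 over the 8 libraries, among 4474 genes with at least 5 peaks and a mean of at least 50 tags, were Arhgap39 (Pearson r = 0.984 of the log2 CPM), Nuak1 (r = 0.977), a kinase of the AMPK-related family, Kbtbd12 (r = 0.973), 2610307P16Rik (r = 0.968) and Pptc7 (r = 0.967), a protein phosphatase. The median over the candidates was 0.159. Arhgap39 had 175, 163, 201 and 207 CPM in knockout replicates 1 to 4 and 187, 160, 157 and 178 CPM in wild-type replicates 1 to 4. Nuak1, with 34 peaks, had 516, 477, 534 and 564 CPM in knockout replicates 1 to 4 and 527, 473, 472 and 497 CPM in wild-type replicates 1 to 4. In both, as for Sall1, knockout replicates 3 and 4 were the highest libraries. The libraries share the spread in tags in peaks given above, and these values are a description over 8 libraries.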
